A study of Mus musculus with 8 samples.

Results

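Osteocalcin and the genes of mineralization were described in cells of the mouse periosteum, the connective tissue sheath of bone. The group was set as a list of 9 genes out of the 32285 listed: Bglap, Bglap2 and Bglap3 (the osteocalcin copies), Ibsp, Alpl, Phex, Dmp1, Sp7 and Runx2. Male C57BL/6J mice were kept on normal chow (ND) or on high-fat diet (HFD) for 12 weeks, from 4 to 16 weeks of age, and both groups were otherwise of the same strain, sex and age. Collagenase and dispase freed the periosteal cells from the left femur and tibia, and their RNA was read by droplet-based single-cell RNA sequencing (10X Chromium), in which each count is a unique molecular identifier (UMI), that is, 1 captured RNA molecule. The labels list 4 mice per diet, but the counts of each diet form 1 pooled matrix in which no barcode is tied to a mouse. Each diet was therefore 1 library, no test between diets could be made, and the 95% intervals (exact Poisson or binomial) reflect counting error alone. Where no UMI was found, the upper limit is the level of 3 counts.

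Bone mineral forms on a collagen matrix laid down by osteoblasts. Runx2 and Sp7 (osterix) are the transcription factors that commit cells to the osteoblast lineage. Alpl, the tissue-nonspecific alkaline phosphatase, removes pyrophosphate, an inhibitor of crystal growth, and releases phosphate. Ibsp (bone sialoprotein) and Dmp1 are acidic phosphoproteins of the matrix, the former linked to early crystal formation and the latter a product chiefly of osteocytes. Phex is a membrane protease that restrains release of the phosphate-wasting hormone FGF23, and osteocalcin is a small vitamin K-dependent protein that binds calcium and is secreted late in osteoblast differentiation.

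The 3 osteocalcin copies lie side by side on the minus strand of chromosome 3 (build mm10): Bglap at chr3:88383501-88384464, Bglap2 at chr3:88377736-88378699 and Bglap3 at chr3:88368616-88372743, with 4801 bases between the first pair and 4992 between Bglap2 and Bglap3. Ibsp (chr5:104299171-104311469) and Dmp1 (chr5:104202613-104214102) are neighbours on the plus strand of chromosome 5, with 85068 bases between them. Alpl lies at chr4:137741733-137796384, Sp7 at chr15:102356606-102367182, Runx2 at chr17:44495987-44814797 and Phex at chrX:157162075-157415312, each on the minus strand. In the GENCODE transcripts, 60.4% of the 90-base stretches of Bglap also occurred in Bglap2 and none in Bglap3, while 7.85% of those of Bglap2 occurred in Bglap3. Reads from such shared stretches cannot be given to 1 copy, so the level of each copy is uncertain and the sum of the 3 genes is the main measure. Whether such reads were counted was not checked. If they were left out, the sum is too low as well.

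Because the results below turn on cells in which osteocalcin and Ibsp part ways, and on Runx2 outside bone cells, the 250 bases before the RefSeq start (GRCm38.p6) of these 3 genes are shown 5′ to 3′ on the strand of the gene. Capitals mark matches to the motifs searched.
Bglap, chr3:88384467-88384716, minus strand: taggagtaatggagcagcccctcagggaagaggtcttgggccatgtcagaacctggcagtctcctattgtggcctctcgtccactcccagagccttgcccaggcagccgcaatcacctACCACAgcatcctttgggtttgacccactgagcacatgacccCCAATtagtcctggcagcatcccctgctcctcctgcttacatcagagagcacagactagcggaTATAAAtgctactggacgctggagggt
Ibsp, chr5:104299037-104299286, plus strand: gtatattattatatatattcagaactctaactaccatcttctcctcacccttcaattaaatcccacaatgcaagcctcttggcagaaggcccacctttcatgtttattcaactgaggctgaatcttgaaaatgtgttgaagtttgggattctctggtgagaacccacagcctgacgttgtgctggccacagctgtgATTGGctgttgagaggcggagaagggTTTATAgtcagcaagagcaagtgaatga
Runx2, chr17:44814628-44814877, minus strand: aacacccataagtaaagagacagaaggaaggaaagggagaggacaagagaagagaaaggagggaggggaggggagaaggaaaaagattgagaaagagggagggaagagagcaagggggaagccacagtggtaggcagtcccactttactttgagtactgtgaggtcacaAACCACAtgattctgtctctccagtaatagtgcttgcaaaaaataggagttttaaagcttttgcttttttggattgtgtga

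The motifs searched on both strands were AACCACA, the site that RUNX factors bind, its shorter core ACCACA (added after the sequences had been seen and contained in the former), the core promoter element TATAAA, the upstream element CCAAT, the GC box GGGCGG, the homeodomain core TAATTA and a vitamin D response element. The Bglap window held TATAAA 27 bases, CCAAT 90 bases and ACCACA 132 bases before the start. The Ibsp window held the same first pair in the opposite orientation, TATAAA at 28 and CCAAT at 54 bases, and no match to ACCACA. The longer site AACCACA was matched in the Runx2 window, 81 bases before the start, and in 1 of the 2 Dmp1 windows. Of 32851 windows of this length, 4.40% held AACCACA, 14.0% ACCACA, 12.4% TATAAA, 33.8% CCAAT, 32.7% the GC box, 4.84% the homeodomain core and 0.0213% the vitamin D element. The last had no match in the windows of the group. Windows were available for 7 of the 9 genes, without Bglap2 and Sp7. Of the windows shown, those of Runx2 and Ibsp run into the genes as placed above. Those positions are from GENCODE, which starts both genes further upstream than RefSeq, so the distances hold for the RefSeq starts.

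Barcodes passed if they had above 500 but below 8000 genes with a UMI and a mitochondrial share under 20%, which left 6029 of 6314 barcodes on ND and 6224 of 6636 on HFD, with a median of 4610 and 4823.5 UMIs per cell. The libraries held 48558889 and 49940976 UMIs and shared 15 barcode sequences. Cells were clustered with the 9 genes left out and named by markers. Mesenchymal-like cells numbered 409 on ND and 674 on HFD (6.78% and 10.8% of kept cells), of which 66 and 145 were osteoblast-like. This class scored highest on the Postn osteogenic list, with 11 of 16 osteoblast markers detected, among them Col1a1, Sparc and Spp1, and was called osteoblast-like after the clusters had been seen. Its chondrocyte marker score was close (2.24 against 2.33). It held 186 cells in which Mmp13, Ibsp, Spp1, Bglap and Postn led (59 ND, 127 HFD, termed Mmp13-led) and a smaller set led by Col2a1, the collagen of cartilage (7 ND, 18 HFD). At resolution 1 with subclusters at 0.5, a cluster led by Col2a1 (7 ND, 16 HFD) was named chondrocyte. With the 9 genes in the clustering and subclusters at 0.5, so was one of 7 ND and 15 HFD cells. Values for osteoblast-like cells include the Col2a1-led set unless stated, so its place in this class is uncertain. The genes that define osteocytes were nearly absent from the osteoblast-like cells: Mepe had 3 UMIs on ND and 0 on HFD, and Sost had 0 in both. All 7 Col2a1-led ND cells, but 0 of the 18 on HFD, were among the 5% of barcodes with the highest doublet scores, and over all osteoblast-like cells the share was 28.8% on ND and 5.52% on HFD. In the Mmp13-led cells it was 20.3% and 6.30%. The diet ratio of osteocalcin in osteoblast-like cells and the counts of cells with osteocalcin and Ibsp are given with and without these barcodes, and values of the other genes of mineralization with them.

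Osteocalcin transcripts were concentrated in few cells. Bglap, Bglap2 and Bglap3 together had 24413 UMIs in kept cells, of which 85.1% (84.7 to 85.6) lay in osteoblast-like cells. Tenocyte-like cells held 18.9% of those on ND and 7.25% of those on HFD. The 10 cells with most osteocalcin held 52.0% of the 7785 UMIs on ND and 31.1% of the 16628 on HFD. Ibsp was concentrated in even fewer cells. Of its 13929 UMIs, 96.1% were in osteoblast-like cells, and 10 cells held 77.5% on ND and 63.8% on HFD. The Mmp13-led cells held 2429 Ibsp UMIs on ND and 6470 on HFD, and the few Col2a1-led cells held 1875 and 2616. Without the Col2a1-led cells the osteoblast-like share of osteocalcin was 83.2%, and that of Ibsp fell below it. Alpl was spread more evenly, with 76.9% of 2748 UMIs in osteoblast-like cells and 35.0% and 23.7% in the top 10 cells. Sp7 was sparse but restricted, with 81.2% of its 197 UMIs in these cells. Runx2 was different: only 14.2% of its 2181 UMIs were in osteoblast-like cells and 26.4% in mesenchymal-like cells of any kind. Dmp1 (31 UMIs in 13 cells) and Phex (126 UMIs in 38 cells) were near the limit of detection.

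**Figure D1:**
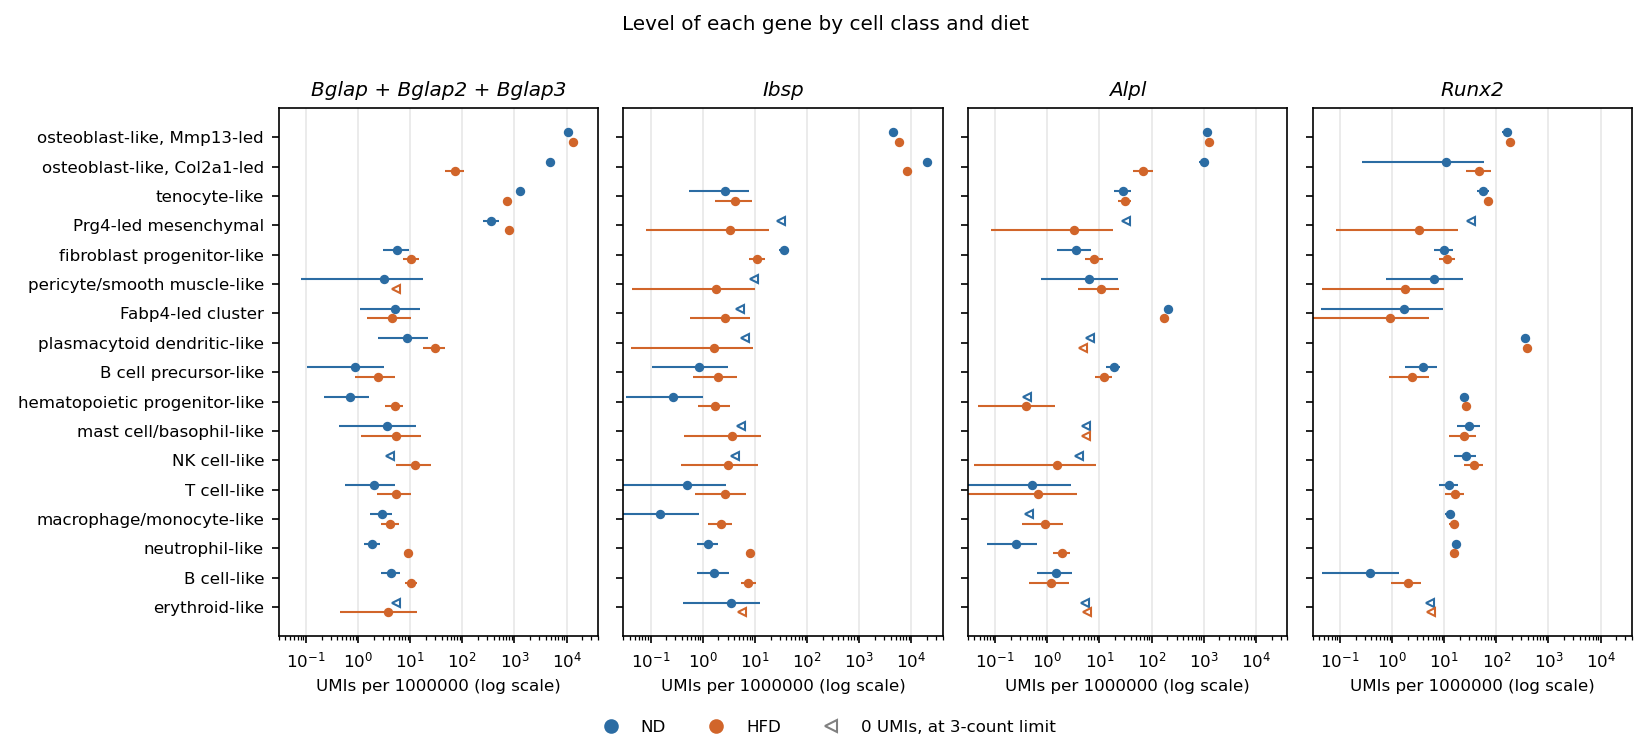
Level of the summed osteocalcin genes, Ibsp, Alpl and Runx2 in each cell class, in UMIs per 1000000 (UPM) on a log axis, for ND and HFD. Points are 1 pooled library each with exact Poisson 95% intervals, and open triangles mark 0 UMIs at the limit of 3 counts. Osteocalcin is highest in Mmp13-led cells and keeps a lower level in tenocyte-like (1299 and 724 UPM) and Prg4-led cells (357 and 803), Ibsp is highest in the osteoblast-like cells, Alpl keeps a second level in the Fabp4-led cluster, and Runx2 is highest in plasmacytoid dendritic-like cells.

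In Mmp13-led osteoblast-like cells 8 of the 9 genes had a UMI on ND, all but Phex, and 9 on HFD. Levels are given as UMIs per 1000000 UMIs of the class (UPM). Bglap stood at 5139 UPM (4950 to 5333) on ND and 6113 (5967 to 6260) on HFD, and Bglap2 at 4943 and 6716. Bglap3 reached 338 and 479 UPM, 3.24% and 3.60% of the osteocalcin UMIs. The genes of enzyme and matrix were of like order, with Ibsp at 4480 and 5876 UPM and Alpl at 1155 and 1244. The transcription factors were far lower, Runx2 at 162 and 187 and Sp7 at 71.9 and 96.3 UPM. Dmp1 had 2 UMIs on ND and 18 on HFD, 10 of the latter in 1 cell, and Phex had 0 and 2. This assay counts 3′ ends, so these levels are not divided by transcript length.

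The genes differed in how they were spread over these cells. Bglap was found in 86.4% of ND and 93.7% of HFD cells, with medians of 19 and 28 UMIs per cell and highest cells of 506 and 551. Alpl was found in 93.2% and 89.0%, with a median of 7 in both and highest cells of 39 and 75. Ibsp was found in only 69.5% and 57.5%, with medians of 5 and 3 but highest cells of 671 and 1382. Runx2 was found in 64.4% and 65.4% of cells and Sp7 in 44.1% and 46.5%. In B cell-like cells, a class without known use of these genes, 0.520% of ND and 1.39% of HFD cells held a Bglap UMI, at median depths of 3787 and 3667 UMIs against 7703 and 7270 in the Mmp13-led cells. Thinned to 1000 UMIs per cell, the Mmp13-led share with Bglap was 74.6% and 81.6%, and with Ibsp 54.2% and 50.4%.

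Most Mmp13-led cells held osteocalcin, whether or not they held bone sialoprotein, while many held no or little bone sialoprotein. Of these cells, 31 of 59 on ND and 58 of 127 on HFD held at least 3 UMIs of both. Osteocalcin with under 3 UMIs of Ibsp was held by 21 (35.6%, 23.6 to 49.1) and 58 (45.7%, 36.8 to 54.7). Ibsp with under 3 of osteocalcin was held by 3 and 6, and 4 and 5 had under 3 of each. Without the highest doublet scores, 26 of 47 and 57 of 119 held both, 16 and 51 osteocalcin alone and 3 and 6 Ibsp alone. Across cells, Spearman's rho of the summed osteocalcin share with that of Ibsp was 0.09 over 59 ND cells and 0.004 over 127 HFD cells, and 0.087 and 0.0052 without the highest doublet scores. Between Bglap and Bglap2, which share sequence, it was 0.84 and 0.81. Osteocalcin ran against Col1a1, the main collagen of bone (rho of -0.35 and -0.37), both being shares of the same cell's UMIs. Its relation to Alpl differed between the libraries, 0.51 and 0.15. These coefficients describe the cells of 1 pooled library each and carry no test.

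The Col2a1-led cells showed the reverse of the osteocalcin-only pattern. Ibsp stood at 8224 UPM (7912 to 8546) in the 18 HFD cells, where 13 held the gene, against 72.3 UPM of summed osteocalcin from 3 cells. The highest HFD cell held 1431 Ibsp UMIs and the next 479, and the median was 6. Col2a1 itself stood at 6077 UPM and Acan, the large proteoglycan of cartilage, at 1364 UPM. In the 7 ND cells Ibsp was at 19972 UPM, but 1380 of 1875 UMIs came from 1 cell, which was also the only cell with osteocalcin (455 UMIs). As these ND cells all had high doublet scores, the description rests on the HFD cells, and there on few of them. The summed level of 10 neutrophil markers was 639 UPM on ND and 15700 UPM on HFD in these cells, and its part in the result was not tested. Alpl was low in the HFD cells (69.2 UPM in 4 of 18 cells), Sp7 was at 44.0 and Runx2 at 47.2 UPM.

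**Figure D2:**
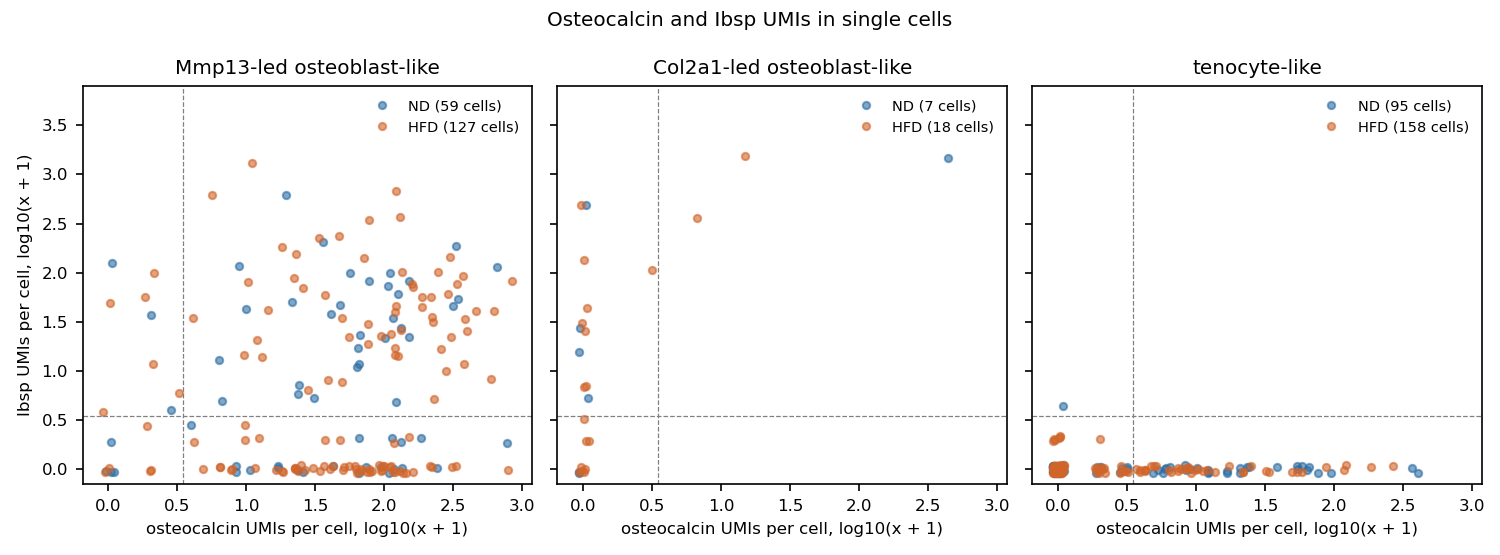
Each point is 1 cell, with summed osteocalcin UMIs on the horizontal and Ibsp UMIs on the vertical axis, both as log10(x + 1) with slight jitter, in Mmp13-led and Col2a1-led osteoblast-like and in tenocyte-like cells. Dashed lines separate cells with under 3 from cells with 3 or more UMIs. Many Mmp13-led cells lie at the lower edge with osteocalcin and under 3 UMIs of Ibsp, most Col2a1-led cells on the left edge, and tenocyte-like cells with 3 or more osteocalcin UMIs all on the lower edge.

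A second population with osteocalcin was found among the tenocyte-like cells, the class in which the tendon genes Scx, Tnmd, Mkx and Fmod were detected. Its name is uncertain: of its 10 leading genes 1, Tnmd, was a tenocyte marker, and at subcluster resolution 0.5 the cluster of 212 cells that held most of it stayed unnamed, with more chondrocyte markers among its leading genes. The summed genes stood at 1299 UPM (1233 to 1367) in 95 ND and 724 UPM (684 to 766) in 158 HFD cells. At least 3 osteocalcin UMIs were held by 29 and 37 cells, up to 403 UMIs in the highest ND and 245 in the highest HFD cell. None of these cells held an Ibsp UMI, which limits Ibsp to 8.08 UPM on ND and 7.53 on HFD, and Mmp13, a collagenase that led the Mmp13-led cells, was also at 0. In HFD osteoblast-like cells 1.62 osteocalcin UMIs were counted for each of Ibsp, against 172 in HFD tenocyte-like cells.

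These osteocalcin-bearing tenocyte-like cells differed from the rest of their class in the same way in both libraries for several genes. Ostn, the gene of the secreted peptide osteocrin, stood at 353 UPM on ND and 592 on HFD, against 13.1 and 8.69 in tenocyte-like cells with under 3 osteocalcin UMIs. Alpl was at 67.3 and 52.7 UPM against 9.16 and 23.7, Runx2 at 80.8 and 110 against 44.5 and 57.6, and Chad, a matrix protein of tendon and cartilage, at 3533 and 4119 against 2496 and 2443. Counting intervals overlapped for Alpl on HFD (32.6 to 80.6 against 16.0 to 33.8) and for Runx2 on ND (54.5 to 115 against 30.8 to 62.2). Sp7 was at 8.08 (3 UMIs) and 27.6 (11 UMIs) against 0 and 3.16 UPM, with overlapping intervals on ND. Fmod was lower, at 1839 and 1875 against 2695 and 2863 UPM, and Scx and Mkx were lower with overlapping intervals. Tnmd (tenomodulin, a marker of mature tenocytes) was lower, at 78.1 and 97.9 against 347 and 684 UPM. Of the Tnmd UMIs in the cells with under 3 osteocalcin UMIs, a Tnmd-rich part of 7 ND and 36 HFD cells held 84 of 265 and 715 of 866. This part lay outside the largest part of the class at subcluster resolution 0.5, and the comparison was not made without it. Postn was higher on ND (267 against 10.5) but lower on HFD (251 against 444). High doublet scores were found for 10.3% and 8.11% of the osteocalcin-bearing cells and for 12.1% and 12.4% of the others. The split was made on osteocalcin after the values had been seen, so that these figures are a description.

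Another, small population was led by Prg4, the lubricin of joint and tendon surfaces, and by Clic5. It held 4 ND and 14 HFD cells and stayed unnamed. On HFD, Bglap2 stood at 599 UPM (515 to 693) with a median of 9.5 UMIs per cell and was found in 11 of 14 cells, whereas Bglap stood at 178 UPM (133 to 232), and Ibsp, Alpl and Runx2 had 1 UMI each. Bglap made up 22.9% (17.7 to 28.8) of the Bglap and Bglap2 UMIs here, against 47.7% (46.8 to 48.5) in Mmp13-led and 45.8% (43.0 to 48.8) in tenocyte-like HFD cells. Bglap2 exceeded Bglap in 11 of the 14 cells and fell below it in 1. The 4 ND cells gave 32.3% (16.7 to 51.4) of 31 UMIs, and 75% of these 4 cells had high doublet scores, against 14.3% on HFD. The neutrophil-gene-led mesenchymal cluster also had a low HFD share, 18.8% (12.2 to 27.1) in 33 cells, but 65.5% (51.9 to 77.5) in 34 ND cells, and 48.5% and 47.1% of these had high doublet scores. In Mmp13-led cells the share was 51.0% (49.6 to 52.3) on ND, above the HFD value by more than counting error, but without a replicate library.

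**Figure D3:**
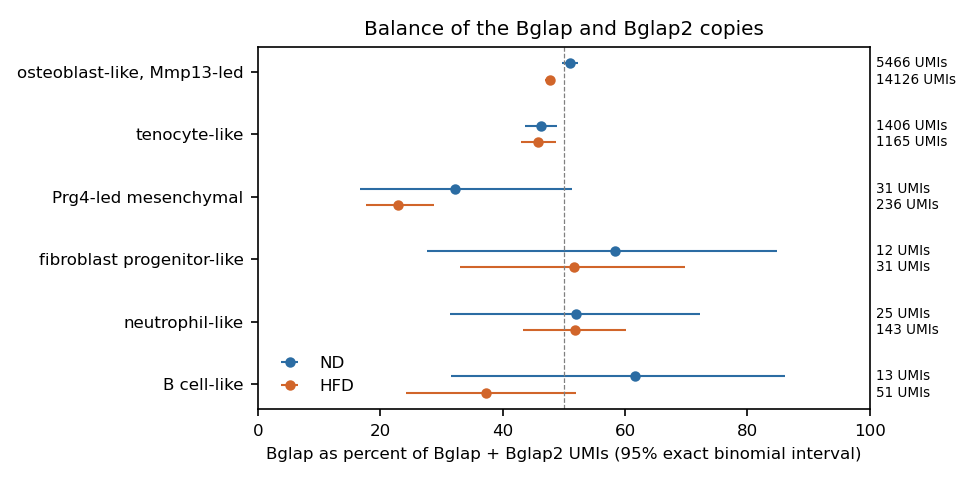
Bglap as a percent of Bglap plus Bglap2 UMIs (horizontal axis) in 6 cell classes, for ND and HFD, with exact binomial 95% intervals and the number of UMIs at the right. The Mmp13-led and tenocyte-like cells lie between 45.8% and 51.0%, while the Prg4-led HFD cells lie at 22.9%, with an interval that does not meet those of the Mmp13-led and tenocyte-like cells.

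Runx2, which binds DNA through its runt domain, was highest outside the skeletal cells. In plasmacytoid dendritic-like cells, blood cells known for interferon production and here marked by Siglech, it stood at 350 UPM (298 to 408) in 42 ND and 390 UPM (342 to 443) in 56 HFD cells, and was found in 90.5% and 92.9% of them. The ratio over Mmp13-led osteoblast-like cells was 1.10 on the log2 scale (0.72 to 1.50) on ND and 1.06 (0.79 to 1.34) on HFD, and 0.88 (0.45 to 1.32) and 1.04 (0.77 to 1.32) without cells of high doublet score. Its companions did not follow, as Alpl and Sp7 had 0 UMIs in these cells in both libraries and Ibsp 0 and 1. Below the Mmp13-led cells (162 and 187 UPM) came tenocyte-like cells at 56.4 and 70.3 UPM. Mast cell/basophil-like (30.6 and 23.5), NK cell-like (26.2 and 37.5) and hematopoietic progenitor-like cells (23.6 and 26.3) followed with overlapping intervals. Neutrophil-like cells stood at 16.8 and 15.3 and B cell-like cells at 0.373 and 1.98 UPM. Because neutrophil-like cells are so many, they held 24.1% of all Runx2 UMIs, more than the osteoblast-like cells. With thinning to 1000 UMIs per cell, Runx2 was found in 35.7% and 23.2% of plasmacytoid dendritic-like and 18.6% and 22.4% of Mmp13-led cells, so on HFD the shares nearly met at this depth.

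Alpl also had sources outside the osteoblast-like cells. An unnamed cluster led by Fabp4 (117 ND and 230 HFD cells), with all 8 endothelial markers detected, Cdh5 at 1126 and 1185 UPM among them, held Alpl at 206 UPM (171 to 247) on ND and 170 (147 to 196) on HFD, in 29.9% and 32.6% of cells. Osteocalcin there was at 5.20 and 4.52 UPM, beside 4.29 and 10.5 in B cell-like cells. B cell precursor-like cells held Alpl at 18.6 UPM (13.5 to 25.1) and 12.3 (8.36 to 17.5), against 1.49 and 1.19 in B cell-like cells. In hematopoietic progenitor-like cells, the deepest class, Alpl had 0 UMIs on ND and 2 on HFD.

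Phex, known as a gene of osteoblasts and osteocytes, was counted chiefly in fibroblast progenitor-like cells, marked by Pi16, Dpp4 and Clec3b. They held 19 of 27 UMIs on ND and 69 of 99 on HFD, in 12 of 210 and 14 of 324 cells, and the highest cells had 4 and 12 UMIs. In osteoblast-like cells Phex had 0 UMIs on ND, which allows up to 4.72 UPM, and 2 on HFD. The fibroblast progenitor-like level was 8.27 UPM on ND and 22.1 on HFD, a log2 ratio of 1.39 (0.67 to 2.23). In the Prg4-led cells all 13 HFD Phex UMIs came from 1 cell. Without the 5 fibroblast progenitor-like cells with most Phex UMIs in each library the ratio was 1.13 (-0.08 to 2.67), which includes no difference.

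Low counts of osteocalcin and Ibsp occurred in most blood cell classes. In neutrophil-like cells summed osteocalcin was at 1.89 UPM on ND and 9.04 on HFD, and Ibsp at 1.26 and 8.10. In B cell-like cells these values were 4.29 and 10.5, and 1.68 and 7.53. Osteocalcin UMIs per Ibsp UMI in HFD were 1.12 in neutrophil-like, 1.39 in B cell-like and 1.62 in osteoblast-like cells. In ND they were 1.50, 2.56 and 1.42. Macrophage/monocyte-like ND cells had 19 osteocalcin UMIs to 1 of Ibsp, and 57 of the 137 Ibsp UMIs of HFD neutrophil-like cells came from 1 cell. The source of these counts was not tested. In neutrophil-like and B cell-like cells 4 of 5 tested genes of the group (neutrophil-like) and 3 of 3 (B cell-like) were higher on HFD beyond counting error, against 7.59% and 11.8% of all genes tested. None was lower, against 18.4% and 7.13%. These counts depend on the minimum of 20 UMIs, which most of the higher genes met only with their HFD counts. In neutrophil-like cells these were Bglap (13 UMIs on ND and 74 on HFD), Bglap2 (12 and 69) and Alpl (4 and 32). In B cell-like cells they were Bglap (8 and 19), Bglap2 (5 and 32) and Ibsp (9 and 38). Alpl (8 and 6), Bglap3 (10 and 2) and Runx2 (2 and 10) fell under the minimum there. No conclusion is drawn from the comparison with all genes. Bglap3 had more UMIs than the other copies in plasmacytoid dendritic-like cells, with 4 UMIs on ND and 10 on HFD beside 0 and 2 of Bglap and 0 and 6 of Bglap2. In 1 of the HFD cells it had 5 UMIs. In B cell-like cells Bglap3 made up 10 of 23 osteocalcin UMIs on ND (43.5%, 23.2 to 65.5) and 2 on HFD (3.77%). There it had fewer UMIs on HFD, unlike Bglap and Bglap2, but too few to be among the genes tested.

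Between the diets, the group as a whole was more abundant in the HFD library. Over all kept cells, summed osteocalcin stood at 162 UPM on ND and 337 on HFD, a log2 ratio of 1.06 (1.02 to 1.10). Of the 9 genes, 8 had an interval above 1 and 0 below, where 25.8% of all genes tested were higher and 15.9% lower, and Dmp1 (11 and 20 UMIs) was the exception. Within mesenchymal-like cells all 9 were higher and 0 lower, where 12.5% of all genes were higher and 8.79% lower. Dmp1 was among the 9 only through HFD, as its 2 UMIs on ND and 18 on HFD just met the minimum of 20. Summed osteocalcin was at 1596 and 2312 UPM there, a log2 ratio of 0.53 (0.50 to 0.57). The share of osteoblast-like among all kept cells was 1.09% (0.848 to 1.39) on ND and 2.33% (1.97 to 2.74) on HFD, intervals that do not overlap. Among mesenchymal-like cells it was 16.1% (12.7 to 20.1) on ND and 21.5% (18.5 to 24.8) on HFD, intervals that overlap. The makeup of the tissue and the yield of cells from digestion cannot be told apart.

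Within osteoblast-like cells the direction for osteocalcin, Ibsp and Alpl depended on which cells were taken, while the Sp7 ratio (0.42, -0.10 to 0.98) was positive in all 9 alternatives run but its interval included no difference in each. Summed osteocalcin was at 9597 UPM on ND and 10341 on HFD, a log2 ratio of 0.11 (0.06 to 0.15). Of 8 genes tested, with at least 20 UMIs over both libraries, Bglap2 was higher on HFD (0.23, 0.16 to 0.29) and Ibsp (-0.08, -0.13 to -0.03) and Alpl (-0.21, -0.34 to -0.08) were lower, where 6.15% of all genes were higher and 7.75% lower. Only Dmp1, from 2 and 18 UMIs, differed by at least 2-fold, as did 3.9% (higher) and 3.78% (lower) of all genes. It met the minimum of 20 UMIs only through its HFD count. Without the Col2a1-led cells, 5 were higher, namely Bglap, Bglap2, Bglap3, Ibsp and Dmp1, and 0 were lower, where 6.03% and 7.2% of all genes were so. Dmp1 was again counted from 2 and 18 UMIs. Summed osteocalcin was then 10420 on ND and 13307 on HFD, a log2 ratio of 0.35 (0.31 to 0.40). In these Mmp13-led cells the summed level of 10 neutrophil markers, 9 of them detected, was 1618 UPM on ND and 7163 UPM on HFD, and its part in the ratios was not tested. Removing instead the cells with high doublet scores turned the summed value to -0.32 (-0.37 to -0.27), with Bglap at 6158 UPM on ND and 4618 on HFD. This set 47 ND cells, all Mmp13-led, against 137 HFD cells, of which 18 were Col2a1-led. In Mmp13-led cells without high doublet scores Bglap was at 6158 (5915 to 6409) and 5997 (5850 to 6146) UPM, intervals that overlap. Bglap2 was there at 6079 (5837 to 6328) on ND and 6727 (6572 to 6886) on HFD. The osteocalcin ratio between diets in osteoblast-like cells thus moved further with the choice of cells than its counting interval.

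**Figure D4:**
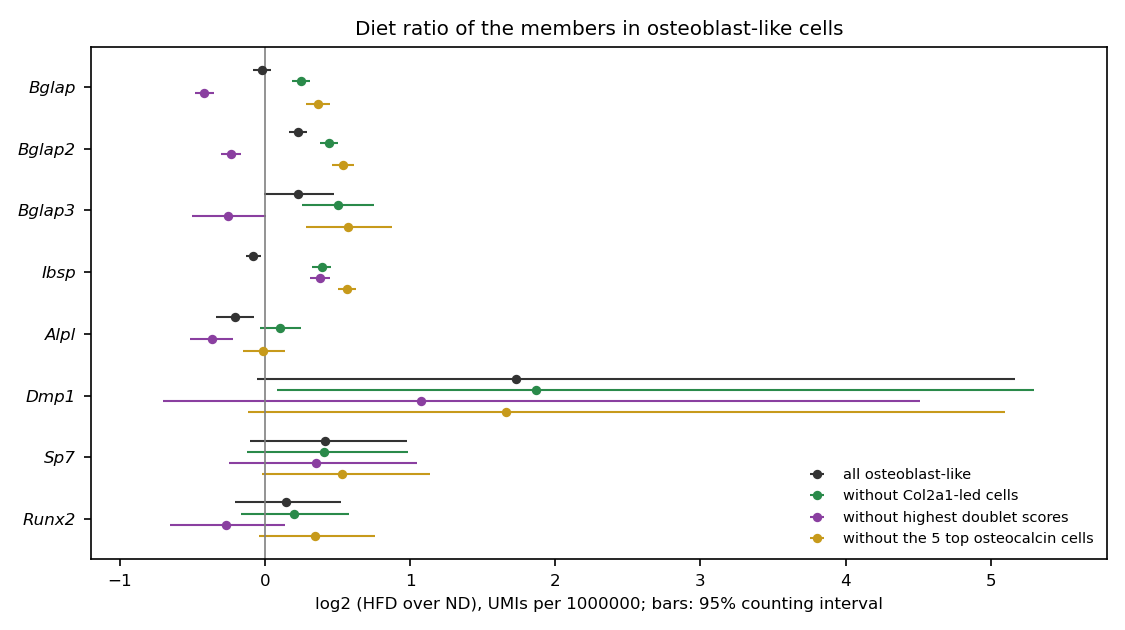
Log2 ratio of HFD over ND (horizontal axis) for 8 of the genes in osteoblast-like cells, with 95% counting intervals, for all such cells and for 3 selections of cells. For Bglap, Bglap2, Bglap3 and Ibsp the selections lie on both sides of 0, further apart than their intervals, and the Dmp1 interval spans most of the axis. The selection without the highest doublet scores lacks the Col2a1-led cells on ND but keeps all 18 on HFD.

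In tenocyte-like cells the osteocalcin genes were lower on HFD. Bglap was at 572 UPM on ND and 321 on HFD, Bglap2 at 666 and 379 and Bglap3 at 60.8 and 24.0, all with intervals below 1, and 0 of the 5 genes tested were higher, where 6.51% of all genes tested were lower and 8.08% higher. The summed log2 ratio was -0.84 (-0.95 to -0.73). It kept its sign in the 8 alternatives run, from -1.42 with the 9 genes in the clustering to -0.61 without the 5 highest cells of each library. The makeup of the class differed between the libraries. At subcluster resolution 0.5, 7 of 95 ND and 36 of 158 HFD cells lay outside its largest part, and these had Tnmd at 728 and 2194 UPM and 1 and 2 osteocalcin UMIs. Within the largest part summed osteocalcin was at 1445 and 898 UPM, a log2 ratio of -0.69 (-0.80 to -0.57). The split depended on the clustering. With the 9 genes in it, the 36 HFD cells outside the largest part held 360 osteocalcin UMIs (1023 UPM). The largest part then stood at 1497 UPM on ND and 644 on HFD. The share of cells with at least 3 osteocalcin UMIs was 30.5% (21.5 to 40.8) on ND and 23.4% (17.1 to 30.8) on HFD, which overlap. Runx2 in these cells was 56.4 and 70.3 UPM, a log2 ratio of 0.31 (-0.13 to 0.78).

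Of 39 other genes of mineralization, 28 could be compared in osteoblast-like cells: 11 were higher on HFD, 5 lower and 12 within counting error, where 6.15% of all genes tested were higher and 7.75% lower. Such calls come more easily at high counts, as for Col1a1 (11613 UMIs on ND and 34246 on HFD). The shares of all genes were not matched for count. The median log2 ratio was 0.26 against -0.01 over all genes, but 0.0016 with the 9 genes in the clustering. Among matrix proteins, Spp1 (osteopontin) differed most, from 2074 UPM on ND to 11183 on HFD, a log2 ratio of 2.43 (2.35 to 2.51), and it was 2088 and 11233 in the Mmp13-led cells alone. Col1a1, Col1a2, Sparc and Mgp were also higher, and Omd and Ogn lower. Without the Col2a1-led cells the intervals of Mgp, an inhibitor of calcification (564 and 521 UPM), Ogn, Smpd3, Vkorc1, Dlx5 and Atf4 included no difference. For the handling of phosphate and pyrophosphate, Enpp1 and Ank, which raise extracellular pyrophosphate, were higher, Ank at 95.9 and 164 UPM, and Smpd3 was lower. Fam20c, the kinase of secreted phosphoproteins (18.9 and 40.2 UPM), its partner Fam20a and Vkorc1, which recycles the vitamin K that osteocalcin needs, were higher. Of the transcription factors, Dlx5 and Atf4 were lower, and Cbfb and Vdr lay within counting error. Wif1, a secreted Wnt inhibitor, was at 206 and 625 UPM, though at 1.84 and 46.3 in the Mmp13-led cells, and the enzymes of vitamin D, Cyp27b1 and Cyp24a1, could not be compared with 0 and 1 UMI in all. In Mmp13-led cells 9 of 27 were higher and 1 lower, where 6.03% and 7.2% of all genes were so, and the median was 0.11. There Fam20c (8 UMIs on ND and 49 on HFD), Fam20a (7 and 46) and Wif1 (1 and 51) met the minimum of 20 UMIs only through HFD. Over all osteoblast-like cells the same held for Fam20c (12 and 57) and Fam20a (7 and 47). No conclusion is drawn from these counts beside the shares of all genes.

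Over 28 class and library levels (14 named classes), the genes of most similar pattern were Ostn, Wif1 and Col11a1 for Bglap (Pearson's r of log2 levels 0.97, 0.96 and 0.96), Mmp13, Adam12 and Lrrc15 for Ibsp (0.96, 0.95 and 0.92) and Hapln1, Ptprz1 and Col27a1 for Alpl (0.90 each). Ostn also led for Bglap2 (0.96), and Tnn for Bglap3 (0.91). For Runx2 the nearest genes were Srgap3, Man1c1 and Ubxn4 (0.86, 0.82 and 0.81), none of which was near another of the group. Unnamed clusters were left out, among them the Fabp4-led one, which held 11.2% of the Alpl UMIs. The osteoblast-like class entered as 1 unit per library, which joins Mmp13-led and Col2a1-led cells. Of its Wif1 UMIs, 1 of 131 on ND and 51 of 887 on HFD were in Mmp13-led cells. For Bglap these were 2786 of 3068 and 6731 of 6747. A high coefficient thus does not mean that 2 genes lie in the same cells. Levels of the same class in both libraries are not independent points, and these coefficients carry no test.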

How the data were processed

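Periosteal cells of ND and HFD mice were profiled by 10X single-cell RNA sequencing. The authors' deposited matrices hold raw UMI counts per gene and barcode. The labels name Cell Ranger 6.0.1 and build mm10. Barcodes with more than 500 and fewer than 8000 genes and under 20% mitochondrial UMIs were kept. Seurat 5.3.0 (SCTransform, 30 components, Louvain at resolution 0.5) was run with the 9 genes left out, and mesenchymal-like cells were re-clustered at 0.2. Clusters were named from marker lists, with the limits of the naming rule and the osteoblast-like name set after the clusters had been seen. Levels are UMIs per 1000000, with exact Poisson, binomial and conditional binomial 95% intervals (scipy 1.17.1) that cover counting error only. Genes with at least 20 UMIs over both libraries were compared, and 0.5 was added to counts in log2 ratios. Shares called among all genes were not matched to the listed genes for UMI count. No test or p-value was computed, each diet being 1 pooled library. Scrublet (scanpy 1.11.5) marked only 0.116% of ND and 0.0643% of HFD cells by its own threshold, so doublets were kept, and removing the highest 5% of scores was an alternative chosen after seeing the data.

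The 9 genes, the pathway list and the marker lists were chosen with earlier results of these data known. Genes named are the 9, the pathway list, the markers, and for each of the 9 with at least 200 UMIs in mesenchymal-like cells the 3 genes of highest Pearson correlation of log2(UPM + 1). Ostn, Mmp13, Chad, Prg4 and Clic5 were in part chosen after their values were seen. The alternatives were thinning to 1000 UMIs, leaving out the 5 highest cells, subtracting the level in B cell-like cells, other denominators, clusterings and filters. The interval code was tested on simulated Poisson counts, the model that the intervals assume. That check does not cover counts clumped in few cells, as those of osteocalcin and Ibsp were. The values of 1 gene of the pathway list are not reported here.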

Additional observations from a re-analysis of the deposited data

How the results depend on the processing

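The diet ratio of summed osteocalcin in osteoblast-like cells (log2 0.11) depended most on the choice of cells. It reversed to -0.32 without the highest doublet scores, and was 0.23 with thinned cells, 0.46 without the 5 highest osteocalcin cells, 0.25 with the 9 genes in the clustering, 0.35 with mesenchymal subclusters at resolution 0.5 or without Col2a1-led cells, and 0.22 with Louvain at resolution 1. The number of genes higher on HFD (1) became 4 without the 5 highest cells, with the 9 genes in the clustering and at resolution 1. It was 5, with Dmp1 from 2 and 18 UMIs among them, at subcluster resolution 0.5 or without Col2a1-led cells. The number lower (2) became 0 under all of these settings and with thinning, and 3 without the highest doublet scores. Beyond the main setting, the share of all genes called is given only without Col2a1-led cells (6.03% higher and 7.2% lower). These counts are therefore not read as a result about the 9 genes. Bglap2 reversed to -0.23 without the highest doublet scores. That removal took all Col2a1-led cells on ND and kept all of those on HFD, so the makeup of the class changed as well. Ibsp reversed to 0.57 without the 5 highest osteocalcin cells, 0.26 with the 9 genes in the clustering and at resolution 1, 0.39 at subcluster resolution 0.5 or without Col2a1-led cells, 0.38 without the highest doublet scores and 0.42 without the 5 highest Ibsp cells. Alpl reversed to 0.15 with thinning and 0.11 at subcluster resolution 0.5 or without Col2a1-led cells. Other genes changed sign too over the 9 alternatives run for each. The ratio ran from -0.42 to 0.36 for Bglap and from -0.25 to 0.57 for Bglap3. For Dmp1 it ran from -0.38 to 1.87, and for Runx2 (0.15, -0.21 to 0.53, in the main setting) from -0.27 to 0.34. The pathway median (0.26) was 0.15 with thinning and with the mean of the cells' own shares, 0.33 with B cell-like levels subtracted, 0.23 at 100 UMIs per gene, 0.0016 with the 9 genes in the clustering, 0.11 at subcluster resolution 0.5 or without Col2a1-led cells, 0.088 at resolution 1 and 0.18 without the highest doublet scores. The HFD osteoblast-like share was 26.5% at resolution 1, and the share of osteocalcin UMIs in osteoblast-like cells 83.2% at subcluster resolution 0.5, at resolution 1 and without Col2a1-led cells. The causes were not tested. The mean of the cells' own shares has no interval and gave no counts of genes. Leaving out Col2a1-led cells, the highest doublet scores or the 5 highest Ibsp cells, and taking the largest part of the tenocyte-like cells, were chosen after seeing the data. No paired analysis was possible because the matrices carry no replicate and each diet is 1 pooled library. Depth limits Phex, Dmp1 and Sp7 most.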
